A study of Xenopus laevis with 17 samples.

Results

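Foxn4 is a forkhead transcription factor, best known from the developing retina and spinal cord and also made in multiciliated cells. Multicilin is a coiled-coil protein that starts the multiciliated program: it works with E2F proteins to switch on genes for the many centrioles of these cells and for their regulators, among them the forkhead factor Foxj1 and the Rfx factors, which in turn act on genes of motile cilia. A motile cilium grows from a centriole docked as a basal body and carries dynein arms, radial spokes and a central pair of microtubules on its axoneme, the microtubule core.

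The regions described here are the promoter peaks of Foxn4 that were found both with and without Multicilin. ChIP-seq (chromatin immunoprecipitation and sequencing) had been done on Xenopus laevis animal caps, pieces of ectoderm taken from early frog embryos. A peak of the list from caps given Foxn4 and Multicilin was taken as kept when it overlapped a peak of the list from caps given Foxn4 alone by 1 bp or more, and as a promoter peak when its centre lay within 1000 bp of the start of a gene model. Of 29673 peaks in the Foxn4 and Multicilin list, 6781 met both conditions. They lay at the starts of 7141 of 24383 gene models (29.3%), on 1056 scaffolds of X. laevis genome assembly v7.1. These models are called members below. A kept peak was chosen by its presence in both lists, so its presence and height are descriptions and were not tested. The rule used no RNA value, but members, gene lists and tests were chosen with earlier results of these data known.

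The ChIP groups were caps injected with Foxn4-GFP-HGR and Multicilin mRNA (n = 1) and caps injected with Foxn4-GFP-HGR alone (n = 1). HGR is the ligand-binding part of the human glucocorticoid receptor, which keeps a fused protein inactive until dexamethasone is added, so the bound protein was an injected, GFP-tagged Foxn4 and not the frog's own. The RNA groups all carried injected Multicilin: caps with Multicilin mRNA, Cas9 protein and a foxn4 guide RNA (Foxn4 CRISPR, n = 2), caps with Multicilin mRNA and a foxn4 morpholino, an antisense oligonucleotide (Foxn4 morpholino, n = 2), caps with Multicilin mRNA, Cas9 protein and a foxj1 guide RNA (Foxj1 CRISPR, n = 2), and caps with MCIDAS-HGR mRNA, the inducible form of Multicilin (Multicilin control, n = 3). Per the labels' protocols, caps were cut at stage 10, 20 caps were pooled per RNA condition, 20 µM dexamethasone was added at mid-stage 11, and RNA or chromatin was taken 9 h later at 22 °C, at about stage 18. No ChIP condition had a second library, so peak values have no replicate check. All control RNA libraries were re-used from earlier work, so wherever a group is set against the control, study and condition cannot be told apart. Nothing in the labels ties replicates to separate clutches, so p-values may measure only technical spread. Bulk RNA was measured, so fewer cells of a type and less RNA per cell cannot be told apart.

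RNA libraries held between 8265823 and 22041340 estimated counts, and 6924 of the 7141 members passed the low-count filter and were tested. The library labelled Multicilin control replicate 2 stood apart from the other control libraries. The 79 members in the axoneme lists summed to 29300 CPM (counts scaled by library size) in it, against 46300 and 47300 CPM in control replicates 1 and 3, and the 42 members for centrioles and basal bodies summed to 6450 CPM, against 15200 and 16200 CPM. One E2F4 model (scaffold 15416) was at 1540 CPM in it and between 9.81 and 31.1 CPM in the other 8 libraries. Counts of called members are therefore given with and without it. The targeted genes do not check the labels, since a cut gene or a blocked message can keep its RNA: the FOXN4 member (scaffold 44061) had 354 and 380 CPM in Foxn4 CRISPR caps, 445 and 506 CPM in Foxn4 morpholino caps, and 388, 79.0 and 511 CPM in control caps. The same held for the most abundant FOXJ1 model (scaffold 71264), with 1050 and 1070 CPM in Foxj1 CRISPR caps and 722, 585 and 888 CPM in control caps. A model of KRT19, a keratin (keratins mark epithelia such as epidermis), ranged from 7850 to 14600 CPM over all 9 libraries, while KRT14 and KRT15 of the same marker list stayed under 1 CPM in each. A different KRT19 member (scaffold 13265) was called lower in Foxn4 morpholino caps (log2 fold change -1.47).

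Kept promoter peaks sat close to the start. Over 7216 pairs of a kept peak and a model start, the median peak centre lay 14 bp downstream of the start, with quartiles at -85 and 124 bp, where minus means upstream. Of these pairs, 48.9% lay within 100 bp of the start, 73.7% within 200 bp and 91.5% within 500 bp. In 45.6% of pairs the centre was upstream of the start. Promoter peaks that were in the Foxn4-alone list only had nearly the same spread, with 49.3% of 6075 pairs within 100 bp and 71.8% within 200 bp. Just inside the distance limit were peaks at MPC2 and PTK2B, both 1000 bp downstream, and at ENTPD2, at -999 bp, and just outside it peaks at ITM2B (1001 bp), SLC25A38 (-1001 bp) and ACBD6 (-1002 bp). The 3 peaks inside had 14.3, 34.6 and 16.3 normalised tags in the Foxn4 and Multicilin list, and the 3 outside had 28.5, 22.4 and 79.4.

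**Figure D1:**
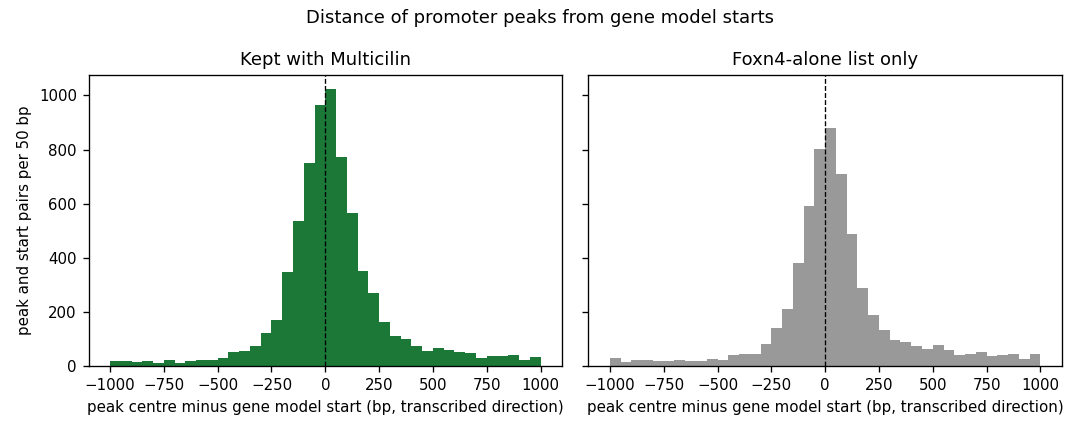
Distance of promoter peak centres from gene model starts, in bp along the transcribed direction (x axis), as the number of peak and start pairs per 50 bp (y axis), for the 7216 pairs of kept peaks (left) and the 6075 pairs of peaks in the Foxn4-alone list only (right). The dashed line is the start; both distributions are centred on it, and the median of the kept pairs is 14 bp downstream.

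Peaks at promoters were shared more often than peaks elsewhere, as far as single libraries show. Of 7381 promoter peaks in the Foxn4 and Multicilin list, 91.9% overlapped a Foxn4-alone peak, against 87.1% of all peaks in that list. In the other direction, 53.8% of the 12614 Foxn4-alone promoter peaks overlapped a Foxn4 and Multicilin peak, against 36.2% of Foxn4-alone peaks away from promoters. A further 600 promoter peaks were in the Foxn4 and Multicilin list only and 5832 in the Foxn4-alone list only. Depth and enrichment differed between the libraries: per the file headers, 11.86% of the tags were in enriched regions in the Foxn4 and Multicilin library, with 4911853 tags in all, and 33.51% in the Foxn4-alone library, with 7387992 tags. The part of these differences in what was kept was not tested.

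Peak heights are the authors' tag counts scaled to 10000000 tags per library, used here only to describe and rank peaks within a list. Kept promoter peaks had a median of 28.5 normalised tags in the Foxn4 and Multicilin list, with quartiles of 20.4 and 44.8 and a range of 12.2 to 755.3. The Foxn4-alone peaks under them had a median of 54.1 and a range of 10.8 to 1311.6. Promoter peaks of the Foxn4-alone list that were not kept had a median of 25.7 in that list. Kept peaks inside genes and between genes both had a median of 30.5 in the Foxn4 and Multicilin list. Over the 6781 kept promoter peaks the heights of both libraries ranked alike (Spearman rho 0.74, a description: the points share both libraries and their common input).

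The highest kept promoter peaks included those of several genes for cilia and their basal bodies. DYNLL2, a light chain shared by dyneins and other complexes, had the highest one, centred 92 bp upstream of its start (scaffold 36586, 114558 to 114834), with 755.3 normalised tags in the Foxn4 and Multicilin list and 1311.6 in the Foxn4-alone list. A second DYNLL2 model (scaffold 113816) had 409.2 and 502.2. DNAAF2, which helps to preassemble dynein arms in the cytoplasm, had 545.6 and 506.2 at 71 bp upstream (scaffold 267922, 1370937 to 1371213). CROCC, which encodes rootletin of the ciliary rootlet, had 502.9 and 735.0 at 32 bp upstream (scaffold 44494, 7452096 to 7452372). HEATR2, another dynein arm assembly factor, had 403.1 and 449.4 at 83 bp upstream (scaffold 23403). The beta-tubulin gene TUBB2B (scaffold 127590) had 399.0 and 350.6 at 299 bp upstream. The remaining peaks of the highest 10 lay at FAM154B, which encodes a protein of axonemal microtubules, together with EFTUD1, a ribosome assembly GTPase, on the opposite strand (415.3 and 694.4), at ART5 (411.3 and 530.6), at LRRC36 (403.1 and 514.3) and at MIIP (401.1 and 607.7). ART5, named for ADP-ribosyltransferases, was the exception in RNA: it stayed between 0.0982 and 0.736 CPM in the 9 libraries and was not tested.

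A kept promoter peak was more common the more RNA a model had in control caps. The share of models with one was 3.14% under 0.1 TPM (a level per transcript length), 10.9% from 0.1 to 1 TPM, 30.4% from 1 to 10 TPM, 46.4% from 10 to 100 TPM and 59.2% over 100 TPM. Members had a median of 15.1 TPM in control caps, models with a Foxn4-alone-only promoter peak 5.72 TPM, and models with no promoter peak 0.602 TPM. In control caps 92.3% of members were at 1 TPM or more.

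Among gene lists, the share with a kept promoter peak was highest for parts of the cilium. It was 17 of 18 models (94.4%) for dynein arm assembly factors, 21 of 23 (91.3%) for radial spokes, central pair and nexin link, and 20 of 23 (87.0%) for axonemal dyneins and their docking factors. It was 19 of 24 (79.2%) for the transition zone, the gate at the cilium's base, 43 of 57 (75.4%) for intraflagellar transport (IFT), BBSome and motors, which carry cargo along the cilium, 21 of 28 (75.0%) for tektins and other proteins inside the microtubules, and 42 of 56 (75.0%) for centriole assembly and basal bodies. Regulators of multiciliated cells had 36 of 58 (62.1%), cell cycle and replication genes 40 of 99 (40.4%), Notch pathway genes 29 of 77 (37.7%), and planar polarity and apical actin genes 13 of 40 (32.5%). Markers of other cell types ranged from 17 of 49 models (34.7%) for epidermis and basal cells and 13 of 45 (28.9%) for neural tissue and neural crest, through 7 of 37 (18.9%) for ionocytes and 5 of 39 (12.8%) for secretory cells, to 2 of 25 (8.0%) for mesoderm and endoderm. The list shares were not tested, and RNA level moved with them: the members of the axoneme lists had a median of 280 TPM in control caps and the members of the marker lists 9.43 TPM. Over all models of a list, kept or not, the span was wider. The median was 371 TPM for axonemal dyneins and their docking factors. It was 0.753 TPM for secretory, 0.405 TPM for neural and 0.0999 TPM for mesoderm and endoderm markers.

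**Figure D2:**
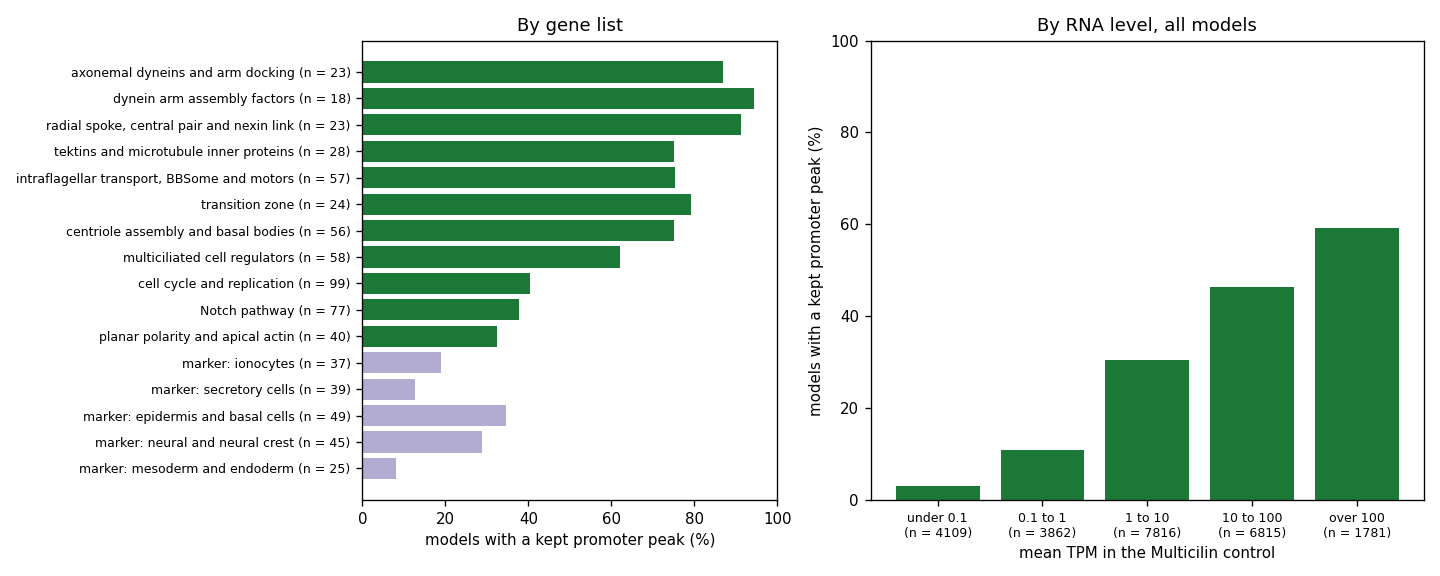
Share of gene models with a kept promoter peak (%), by gene list (left; green, parts and regulators of multiciliated cells and their pathways, violet, markers of other cell types) and by mean TPM in the Multicilin control over all models (right). The share is between 75.0 and 94.4% for the cilium and centriole lists and climbs from 3.14% to 59.2% with RNA level.

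Peak height also differed among the lists. The 79 members of the 4 axoneme lists had a median of 73.3 normalised tags in the Foxn4 and Multicilin list, the 62 members for transport and transition zone 70.25, the 36 regulators 54.95, the 42 members for centrioles and basal bodies 52.9, the Notch pathway 42.8, the 44 markers of other cell types 39.7 and the 40 members of the cell cycle list 23.4. All 6781 kept promoter peaks had a median of 28.5. The order was not the same for the Foxn4-alone peaks under these peaks. Their medians were 102.9 for the Notch pathway, 100.2 for transport and transition zone and 96.1 for the axoneme lists. The markers of other cell types had 79.2, the regulators 78.5, centrioles and basal bodies 75.1 and the cell cycle list 52.75. Of the 79 axoneme members, 70 had their peak within 200 bp of the start.

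Each RNA comparison was tested over all 19058 models that passed the filter, with edgeR's quasi-likelihood test and Benjamini-Hochberg adjustment over all of them, and a model was called at an adjusted p under 0.05. The Foxn4 CRISPR, Foxn4 morpholino and Foxj1 CRISPR comparisons share the same control libraries. Log2 fold changes are the named group over its control, or Foxn4 CRISPR over Foxj1 CRISPR, and are given with their standard errors.

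In edgeR with all libraries, members were lower in Foxn4 CRISPR caps about as often as all tested models. They were higher in a smaller share. There, 749 of 6924 tested members were lower than in control caps (10.8%) and 632 higher (9.13%), where all tested models gave 10.7% lower and 12.6% higher; the median log2 fold change was -0.11 over members and -0.03 over all tested models. Without Foxn4 CRISPR replicate 1 or 2 the lower members numbered 97 and 147 and the higher ones 194 and 227. The lower members numbered 494 without control replicate 1. Without control replicate 2 they numbered 1042, with 751 higher, where all 18914 fitted models gave 2371 lower and 2677 higher. DESeq2 with all libraries called 1049 members lower and 674 higher, and 2756 and 2462 of all 24383 models. Without control replicate 2 the lower share of members was above that of all fitted models, a gap that was not tested. The DESeq2 fit also held the models that edgeR's low-count filter removed, so its shares cannot be set beside those of edgeR.

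In Foxn4 morpholino caps 1734 members were lower (25.0%) and 1402 higher (20.2%), where all tested models gave 21.1% lower and 23.9% higher. The median log2 fold change was -0.09 over members and 0.08 over all tested models. Without morpholino replicate 1 these numbers were 991 lower and 834 higher, and without control replicate 2 they were 1968 and 1484. In Foxj1 CRISPR caps 1657 members were lower (23.9%) and 1262 higher (18.2%), where all tested models gave 20.7% lower and 19.8% higher, and the median was -0.10 over members and 0.01 over all. Without Foxj1 CRISPR replicate 1 or 2 the lower members numbered 720 and 1049 and the higher ones 514 and 821; without control replicate 2 they were 1836 and 1375. Models with a Foxn4-alone-only promoter peak were lower in 9.81% (Foxn4 CRISPR), 18.7% (Foxn4 morpholino) and 16.7% (Foxj1 CRISPR) of those tested. In the same order, 8.41%, 30.1% and 27.9% were lower of the 226 tested models with a promoter peak in the Foxn4 and Multicilin list only. For models with no promoter peak the lower shares were 11.2%, 18.6% and 20.3%.

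Set against Foxj1 CRISPR caps, Foxn4 CRISPR caps had 175 members higher (2.53%) and 0 lower in edgeR's test, where all tested models gave 1.43% higher and 0.021% lower. The higher share was 4.87% for models with a promoter peak in the Foxn4 and Multicilin list only. It was 0.569% for those with one in the Foxn4-alone list only and 0.844% for those with none. At an unadjusted p under 0.05 there were 254 members lower and 738 higher, but a model at such a p is not a call. DESeq2 called 13 members lower and 398 higher, where it called 36 and 698 of all models. All of the 175 calls were lost without either Foxn4 CRISPR library or without Foxj1 CRISPR replicate 1, and fewer were left without Foxj1 CRISPR replicate 2. Without control replicate 2 the 175 became 354. That library enters this comparison only through steps that all groups share: the low-count filter, the scaling and the estimate of spread. Both groups in this comparison came from the new study.

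RNA level has to be read beside these shares. Among models over 100 TPM in control caps, members were lower in 16.9% and other models in 22.0% in Foxn4 CRISPR caps. In Foxn4 morpholino caps these were 47.5% of members and 41.7% of other models, and in Foxj1 CRISPR caps 52.0% and 42.4%. From 1 to 100 TPM members had the smaller share in all 3 groups. From 10 to 100 TPM they were lower in 12.6% against 16.3% of other models in Foxn4 CRISPR caps, 29.5% against 31.9% in Foxn4 morpholino caps and 26.8% against 29.1% in Foxj1 CRISPR caps. From 1 to 10 TPM the shares were 7.07% against 9.16%, 12.3% against 14.5%, and 10.6% against 15.7%, in the same order of groups. Higher in Foxn4 CRISPR than in Foxj1 CRISPR caps were 10.4% of the members over 100 TPM and 5.09% of the other models in that range. Calls of higher against the control were split by level too. From 10 to 100 TPM they took 8.38% of members and 7.5% of other models in Foxn4 CRISPR caps. In Foxn4 morpholino caps these were 18.1% and 16.2%, and in Foxj1 CRISPR caps 16.8% and 14.4%. From 1 to 10 TPM they were 10.6% and 12.3%, 26.2% and 25.0%, and 23.6% and 19.0%, in the same order of groups. Over 100 TPM and from 0.1 to 1 TPM members had the smaller share in all 3 groups. The differences between these shares were not tested.

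Members with higher peaks were more often lower in the Foxn4 morpholino and Foxj1 CRISPR caps. From the lowest to the highest quartile group of height, the share called lower was 17.8, 20.5, 24.7 and 36.7% in Foxn4 morpholino caps and 15.1, 18.6, 24.4 and 37.1% in Foxj1 CRISPR caps. In Foxn4 CRISPR caps it was 8.93, 10.5, 11.3 and 12.5%. The share higher in Foxn4 CRISPR than in Foxj1 CRISPR caps was 0.596, 1.16, 2.23 and 5.99%. Control levels moved with height, with medians of 8.09 TPM in the lowest group and 38.5 TPM in the highest. Among members over 100 TPM, members above the median height of 46.8 normalised tags were lower in 64.9% and members at or below it in 39.9% in Foxj1 CRISPR caps, with median control levels of 216 and 199 TPM. In Foxn4 morpholino caps these shares were 56.5% and 39.2%, and in Foxn4 CRISPR caps 17.8% and 16.0%. The gaps were smaller at lower levels. From 10 to 100 TPM the shares above and at or below the median height were 31.0% and 23.1% in Foxj1 CRISPR caps, 32.5% and 27.0% in Foxn4 morpholino caps, and 12.8% and 12.4% in Foxn4 CRISPR caps. From 1 to 10 TPM they were 11.7% and 9.46%, 13.7% and 11.0%, and 7.28% and 6.87%, in the same order.

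**Figure D3:**
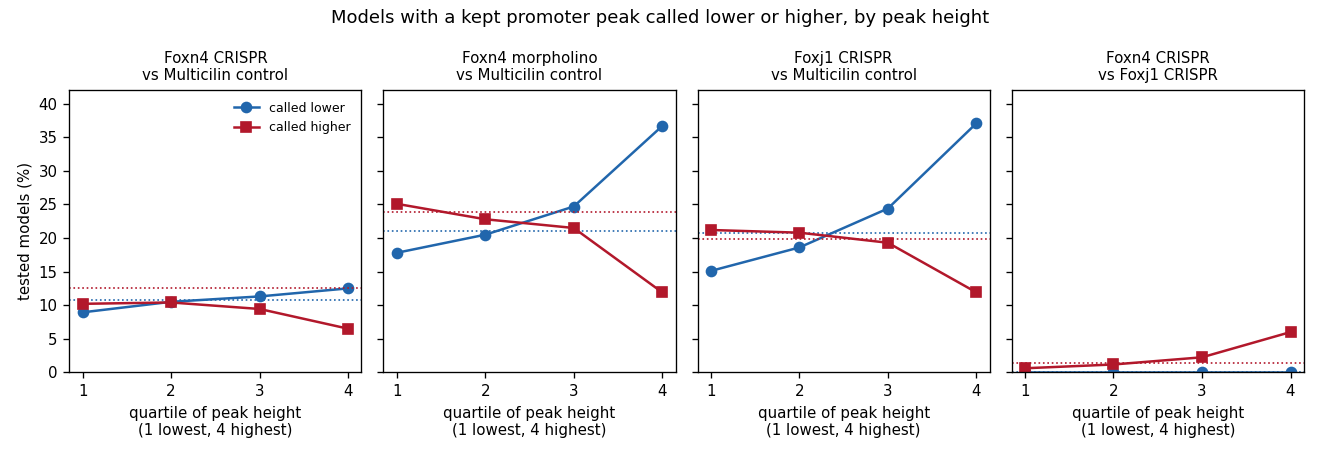
Share of tested members called lower (blue circles) or higher (red squares) at adjusted p under 0.05 (%), by quartile of peak height in the Foxn4 and Multicilin list (1 lowest, 4 highest), in the 4 RNA comparisons. Dotted lines are the shares over all tested models; the lower share reaches 36.7% and 37.1% in the top group for Foxn4 morpholino and Foxj1 CRISPR and 12.5% for Foxn4 CRISPR.

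Most axoneme members were lower in Foxn4 morpholino and Foxj1 CRISPR caps. Of the 79, 21 were lower in Foxn4 CRISPR caps, 57 in Foxn4 morpholino caps and 73 in Foxj1 CRISPR caps, and none was higher in any of these edgeR comparisons. All tested models gave 10.7%, 21.1% and 20.7% lower, against 26.6%, 72.2% and 92.4% of these members. Their median log2 fold changes were -0.71, -1.14 and -2.06. Their summed level was 23900 and 24000 CPM in Foxn4 CRISPR caps, 15800 and 18500 CPM in Foxn4 morpholino caps, 8570 and 10600 CPM in Foxj1 CRISPR caps, and 46300, 29300 and 47300 CPM in control caps. Every perturbed library was below the lowest control library in this sum. Set against Foxj1 CRISPR caps, 31 of the 79 were higher in Foxn4 CRISPR caps and 0 lower, with a median of 1.23. The 13 axoneme models without a kept promoter peak gave 1, 9 and 11 lower and medians of -0.70, -1.71 and -2.89 in the same order of groups, and 8 of them were higher in Foxn4 CRISPR than in Foxj1 CRISPR caps, with a median of 2.02.

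The count for Foxn4 CRISPR rests on single libraries. It was 3 and 2 without Foxn4 CRISPR replicate 1 and 2, 6 and 10 without control replicates 1 and 3, and 51 without control replicate 2. It was 36 with all matching reads, 32 with DESeq2 and 12 with only both compared groups in the fit. The morpholino count was 26 and 38 without morpholino replicates 1 and 2, and 72 without control replicate 2. The Foxj1 CRISPR count was 52 to 78 in all fits that left out a library. The 31 members higher than in Foxj1 CRISPR caps became 0 without either Foxn4 CRISPR library or Foxj1 CRISPR replicate 1, 17 without Foxj1 CRISPR replicate 2 and 48 without control replicate 2.

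HYDIN, a large protein of the central pair, had its kept peak 40 bp upstream of the start with 173.1 normalised tags (scaffold 15416, 888284 to 888560). It was at 601 and 438 CPM in Foxn4 CRISPR caps, 327 and 424 CPM in Foxn4 morpholino caps, 102 and 126 CPM in Foxj1 CRISPR caps, and 1650, 1210 and 1370 CPM in control caps. No library of a perturbed group reached the control range. The log2 fold change was -1.44 ± 0.26 in Foxn4 CRISPR caps (edgeR adjusted p = 0.00478), -1.91 ± 0.27 in Foxn4 morpholino caps (0.000584) and -3.62 ± 0.29 in Foxj1 CRISPR caps (9.33e-05). The first of these lost its call without Foxn4 CRISPR replicate 2 (-1.23). Foxn4 CRISPR caps were higher than Foxj1 CRISPR caps by 2.18 ± 0.29 (adjusted p = 0.0166).

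DNAH9, a heavy chain of the outer dynein arm (scaffold 163806), was at 1540 and 1440 CPM in Foxn4 CRISPR caps, 620 and 1040 CPM in Foxn4 morpholino caps, 256 and 472 CPM in Foxj1 CRISPR caps, and 3660, 2210 and 2500 CPM in control caps. No perturbed library reached the control range. It fell by 1.75 on the log2 scale in Foxn4 morpholino caps (SE 0.36, adjusted p = 0.00362) and by 2.94 in Foxj1 CRISPR caps (SE 0.38, 0.000448). In Foxn4 CRISPR caps its log2 fold change was -0.91 ± 0.35 and missed the threshold (0.083), though it passed without control replicate 2 (-1.05). TEKT2, a tektin of the axonemal microtubules (scaffold 196571), had one of the higher peaks of this group, at 148.6 normalised tags. It was at 692 and 779 CPM in Foxn4 CRISPR caps, 402 and 492 CPM in Foxn4 morpholino caps, 101 and 187 CPM in Foxj1 CRISPR caps, and 1070, 674 and 1160 CPM in control caps. Only the first of these groups overlapped the control range. Its log2 fold change was -2.75 ± 0.36 in Foxj1 CRISPR caps (0.000436) and 2.36 ± 0.36 in Foxn4 CRISPR over Foxj1 CRISPR caps (0.0169). Its change in Foxn4 morpholino caps (-1.12 ± 0.33, 0.019) lost its call without morpholino replicate 1 (-0.98) or 2 (-1.28).

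EFHB, which lines the inside of axonemal microtubules, and the 2 models of FAM154A, which binds axonemal microtubules, were among the 5 called members with the highest log2 fold change of Foxn4 CRISPR over Foxj1 CRISPR caps. EFHB (scaffold 36134) was at 97.7 and 110 CPM in Foxn4 CRISPR caps, 2.17 and 9.94 CPM in Foxj1 CRISPR caps and 143 to 252 CPM in control caps, with a log2 fold change of 4.10 ± 0.59 between the CRISPR groups (adjusted p = 0.0166). The FAM154A model with the higher peak (scaffold 185843, 144.5 normalised tags) was at 189 and 186 CPM in Foxn4 CRISPR caps and 4.99 and 18.9 CPM in Foxj1 CRISPR caps, a log2 fold change of 3.97 ± 0.56 (0.0166). All 17 named calls between the CRISPR groups, HYDIN, TEKT2, DNAH9 (2.03 ± 0.38, 0.0324), EFHB and FAM154A included, were lost without either Foxn4 CRISPR library or without Foxj1 CRISPR replicate 1, where the log2 fold changes were 1.93, 2.39 and 2.03 for HYDIN, in that order. For TEKT2 they were 2.44, 2.26 and 1.97, for DNAH9 1.98, 2.08 and 1.66, for EFHB 4.19, 4.01 and 3.38, and for this FAM154A model 3.96, 3.98 and 3.31.

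Not every gene with one of the highest peaks changed. TUBB2B (scaffold 127590) was called lower at -1.37 in Foxn4 morpholino and -1.86 in Foxj1 CRISPR caps, calls lost without some single libraries. CROCC and FAM154B are given below. Of the 100 members with the highest peaks, 99 were tested. Lower were 13.1%, 45.5% and 45.5% of these in Foxn4 CRISPR, Foxn4 morpholino and Foxj1 CRISPR caps. All tested models gave 10.7%, 21.1% and 20.7%. The median control level of these 100 was 150 TPM. DNAAF2 was at 529 and 535 CPM in Foxn4 CRISPR caps, 343 and 298 CPM in Foxn4 morpholino caps, 331 and 341 CPM in Foxj1 CRISPR caps, and 703, 265 and 687 CPM in control caps, and was called in none of the 4 comparisons. Its log2 fold changes of -0.78 ± 0.37 (Foxn4 morpholino) and -0.71 ± 0.37 (Foxj1 CRISPR) became calls without control replicate 2 (-1.13 and -1.04). HEATR2 fell by 1.05 on the log2 scale in Foxn4 morpholino caps (SE 0.35, adjusted p = 0.0335) and by 1.38 in Foxj1 CRISPR caps (SE 0.36, 0.0122). The first call was lost without morpholino replicate 1 (-0.81) or 2 (-1.35) or control replicate 1 or 3 (-0.88 each), and the second without Foxj1 CRISPR replicate 1 (-1.35) or 2 (-1.41). DYNLL2 was called in no comparison with all libraries in the fit, but both models were called higher in Foxn4 morpholino caps without control replicate 3 (log2 fold change 0.75 at scaffold 36586 and 1.12 at scaffold 113816). The model with the highest peak was at 716 and 661 CPM in Foxn4 CRISPR caps, 1120 and 899 CPM in Foxn4 morpholino caps, 678 and 552 CPM in Foxj1 CRISPR caps, and 678, 514 and 1090 CPM in control caps.

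Members for transport and the transition zone were mostly lower in Foxn4 morpholino and Foxj1 CRISPR caps. Of the 62, 6 were lower and 1 higher in Foxn4 CRISPR caps, 34 lower and 3 higher in Foxn4 morpholino caps, and 52 lower and 3 higher in Foxj1 CRISPR caps, with medians of -0.60, -0.89 and -1.41. The lower shares were 9.68%, 54.8% and 83.9%, where all tested models gave 10.7%, 21.1% and 20.7%, so the first was near that of all models. Models of these lists without a kept promoter peak also fell. Of 11 tested in the IFT, BBSome and motor list, 2, 5 and 9 were lower, and of 4 in the transition zone list 1, 1 and 2. Without Foxn4 CRISPR replicate 1 or 2 the 6 became 0, and without control replicate 2 they became 33. That Foxn4 CRISPR count was 1 without control replicate 1 or 3, and 2 without Foxj1 CRISPR replicate 1 or 2. The morpholino count was 10 and 20 without its own replicates and 22 without control replicate 1 or 3, and the Foxj1 CRISPR count was 22 and 34 without its own. IFT172, a subunit of the IFT train (scaffold 80529), was at 570 and 531 CPM in Foxn4 CRISPR caps, 170 and 296 CPM in Foxn4 morpholino caps, 228 and 306 CPM in Foxj1 CRISPR caps, and 1290, 720 and 1180 CPM in control caps. The libraries of all perturbed groups lay below the lowest control. It fell by 2.19 on the log2 scale in Foxn4 morpholino caps (SE 0.35, adjusted p = 0.00103) and by 1.99 in Foxj1 CRISPR caps (SE 0.34, 0.00169), and its -0.95 ± 0.33 in Foxn4 CRISPR caps missed the threshold (0.0602; called at -1.16 without control replicate 2).

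Most centriole and basal body members were not called. Of the 42, 4 were lower and 2 higher in Foxn4 CRISPR caps, 11 lower and 3 higher in Foxn4 morpholino caps, and 13 lower and 2 higher in Foxj1 CRISPR caps. The medians were -0.16, -0.49 and -0.63. The 13 tested models of this list without a kept promoter peak gave 0 lower and 0 higher, 1 and 2, and 2 and 1. Their medians were 0.29, -0.01 and 0.04. The lower shares of the members, 9.52%, 26.2% and 31.0%, stood beside 10.7%, 21.1% and 20.7% over all tested models, near them in the first 2 comparisons. Without control replicate 2, the control library with the low centriole sum, the lower counts were 14, 25 and 27, and without Foxn4 CRISPR replicate 1 or 2 the first count was 0. Without a morpholino or Foxj1 CRISPR library they were 7 and 6 in Foxn4 morpholino caps and 6 and 8 in Foxj1 CRISPR caps. CROCC, which is in none of the lists but has one of the highest peaks, was at 1740 and 1580 CPM in Foxn4 CRISPR caps, 810 and 1100 CPM in Foxn4 morpholino caps, 1360 and 1540 CPM in Foxj1 CRISPR caps, and 5880, 2260 and 3640 CPM in control caps. It fell by 2.04 on the log2 scale in Foxn4 morpholino caps (SE 0.38, adjusted p = 0.00212). Its changes of -1.24 ± 0.36 in Foxn4 CRISPR caps (0.0335) and -1.43 ± 0.37 in Foxj1 CRISPR caps (0.0112) were lost without 1 library of their own group, at -1.30 or -1.17 and at -1.35 or -1.53, and the first also without Foxj1 CRISPR replicate 1 (-1.24) or control replicate 1 (-0.81) or 3 (-1.28). CEP135, a centriole scaffold protein with 313.5 normalised tags (scaffold 32657), was at 556 and 539 CPM in Foxn4 CRISPR caps, 485 and 304 CPM in Foxn4 morpholino caps, 434 and 490 CPM in Foxj1 CRISPR caps, and 596, 219 and 732 CPM in control caps. With all libraries in the fit it was called in none of the 4 comparisons, nor were PCM1 of the centriolar satellites, the centrosomal kinase NEK2 and CCDC67, known as Deup1, which builds the structures that multiply centrioles. Without control replicate 2, CEP135 (-0.77) and NEK2 (-1.05) were called lower in Foxn4 morpholino caps.

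**Figure D4:**
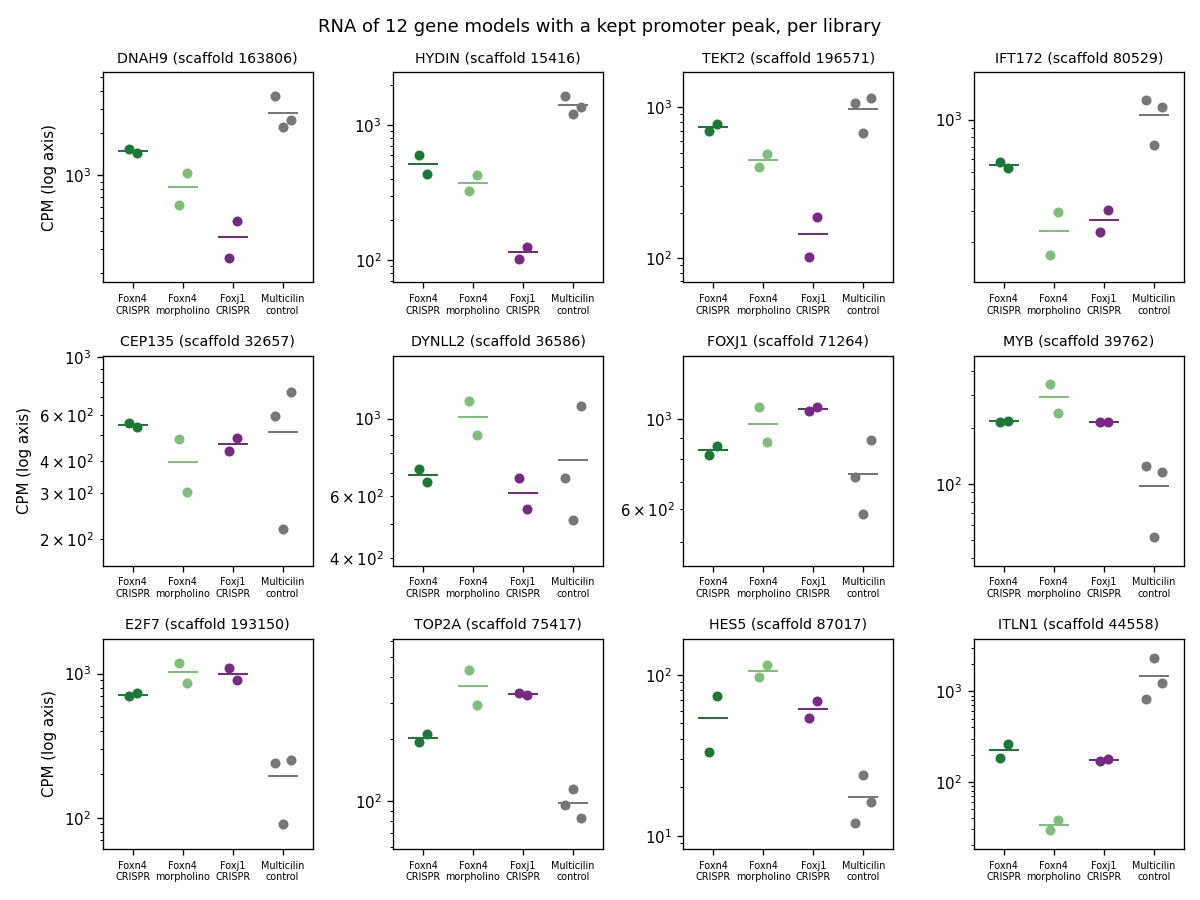
RNA level in CPM (log axis) of 12 members in each library, by group; each point is a library and each line the group mean, on axes that differ between panels. HYDIN, DNAH9, TEKT2, IFT172 and ITLN1 lie lower in Foxj1 CRISPR caps than in every control library, E2F7, TOP2A and HES5 higher, and CEP135 and DYNLL2 overlap the control.

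Several regulators of the program carried kept promoter peaks, and few of these members were lower. All 3 FOXJ1 models had one, with 91.6, 85.5 and 30.5 normalised tags, as had 1 of 2 FOXN4 models (34.6, scaffold 44061), 2 of 3 CCNO models (130.3 and 105.9), CDC20B (126.2), MYB (61.1) and both RFX2 models (148.6 and 103.8). CCNO is a cyclin that centriole multiplication needs, and CDC20B lies next to it in the genome. Neither of the 2 MCIDAS models, which encode Multicilin, had one: the nearest kept peaks were 4437 and 6843 bp from their starts. The MCIDAS model with more RNA (scaffold 337825) was at 1090 and 1090 CPM in Foxn4 CRISPR caps, 1560 and 1140 CPM in Foxn4 morpholino caps, 1440 and 1310 CPM in Foxj1 CRISPR caps, and 465, 128 and 717 CPM in control caps, above the control range in every perturbed library. It was called higher in Foxn4 morpholino caps (1.63 ± 0.51, edgeR adjusted p = 0.0259) and Foxj1 CRISPR caps (1.65 ± 0.51, 0.027). Both calls were lost without either library of the perturbed group, at 1.37 or 1.83 and at 1.58 or 1.71, and without control replicate 1, at 1.66 and 1.72. Whether reads of injected message are among these was not tested. None of the FOXJ1 and FOXN4 models, the CCNO members or CDC20B was called in any of the 4 comparisons with all libraries in the fit. The CCNO model with no kept peak (scaffold 88819) was called lower in Foxj1 CRISPR caps, a call lost without Foxj1 CRISPR replicate 1 (-2.3). Without control replicate 2, CDC20B was called lower in Foxn4 CRISPR caps (-0.72) and Foxj1 CRISPR caps (-0.94). The FOXN4 model with no kept peak (scaffold 143664) was called higher in Foxn4 morpholino caps without control replicate 2 (0.83) or 3 (1.74), and FOXJ1 (scaffold 71264) in Foxj1 CRISPR caps without control replicate 3 (0.71). The most abundant FOXJ1 model, for example, was at 818 and 861 CPM in Foxn4 CRISPR caps, 1070 and 878 CPM in Foxn4 morpholino caps, 1050 and 1070 CPM in Foxj1 CRISPR caps, and 722, 585 and 888 CPM in control caps.

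Of the 36 regulator members, 1 was lower and 6 higher in Foxn4 CRISPR caps, 2 and 11 in Foxn4 morpholino caps, and 4 and 9 in Foxj1 CRISPR caps. The lower shares were 2.78%, 5.56% and 11.1%, where all tested models gave 10.7%, 21.1% and 20.7%. The 19 tested regulator models without a kept promoter peak gave 0 lower and 0 higher, 1 and 5, and 4 and 2. The higher shares of the members were 16.7%, 30.6% and 25.0%, where all tested models gave 12.6%, 23.9% and 19.8%. Without control replicate 2 the higher ones numbered 10, 15 and 12, and without Foxn4 CRISPR replicate 1 or 2 the 6 became 2 and 4. Without morpholino replicate 1 the 11 became 7, and without Foxj1 CRISPR replicate 1 the 9 became 6. Those higher in Foxn4 CRISPR caps were MYB, both E2F7 models and 1 model each of E2F3, TFDP1 and TFDP2. E2F7, an E2F that represses transcription, was at 696 and 730 CPM in Foxn4 CRISPR caps, 1180 and 867 CPM in Foxn4 morpholino caps, 1090 and 896 CPM in Foxj1 CRISPR caps, and 241, 89.8 and 252 CPM in control caps (scaffold 193150, 171.0 normalised tags). All perturbed libraries stood well above the control range. The log2 fold changes were 1.88 ± 0.38 (adjusted p = 0.00748), 2.40 ± 0.38 (0.00108) and 2.35 ± 0.38 (0.00129), in the same order of groups.

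TFDP1, a DNA-binding partner of many E2F proteins, was at 40.7 and 47.6 CPM in Foxn4 CRISPR caps, 51.2 and 43.1 CPM in Foxn4 morpholino caps, 40.9 and 52.1 CPM in Foxj1 CRISPR caps, and 18.4, 14.4 and 17.8 CPM in control caps (scaffold 338390). This model rose by 1.39 to 1.48 on the log2 scale in the 3 comparisons (SE 0.23 each, adjusted p from 0.00104 to 0.00334). Its other member (scaffold 167628) was called higher in Foxn4 morpholino caps (1.39) but not in Foxn4 CRISPR (0.43) or Foxj1 CRISPR caps (0.6). MYB, which promotes multiciliated cell formation, was at 215 and 218 CPM in Foxn4 CRISPR caps, 340 and 240 CPM in Foxn4 morpholino caps, 214 and 213 CPM in Foxj1 CRISPR caps, and 124, 52.0 and 115 CPM in control caps. Its log2 fold changes were 1.16 ± 0.34 (adjusted p = 0.0332), 1.58 ± 0.34 (0.00439) and 1.14 ± 0.34 (0.0221), and the first and last were lost without either library of the CRISPR group concerned, at 1.18 or 1.15 and at 1.13 or 1.14. The first was also lost without either Foxj1 CRISPR library (1.16 each). The kept model of RFX3 (scaffold 106782), an Rfx factor that in mammals acts on ciliary genes, was at 1.95 and 3.09 CPM in Foxj1 CRISPR caps and 26.6, 11.7 and 9.01 CPM in control caps, a log2 fold change of -2.64 ± 0.52 (adjusted p = 0.00329). This RFX3 model was also called lower in Foxn4 morpholino caps (-1.66), a call lost without some single libraries. In Foxn4 CRISPR caps it was not called (-1.21). ZNF474, a zinc finger gene, fell in Foxj1 CRISPR caps at both of its models, with log2 fold changes of -3.32 ± 0.47 and -4.48 ± 0.49 (adjusted p = 0.000651 and 0.00024). Foxn4 CRISPR caps were higher than Foxj1 CRISPR caps by 2.67 ± 0.47 and 3.54 ± 0.49 at these models, the 2 regulator members called in that comparison.

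Among cell cycle and Notch members, more were higher than lower. Of 39 tested cell cycle members, 3 were lower and 6 higher in Foxn4 CRISPR caps, 6 and 15 in Foxn4 morpholino caps, and 4 and 14 in Foxj1 CRISPR caps; of the 56 tested models of this list without a kept promoter peak, 1 and 14, 1 and 29, and 2 and 24. The higher shares of the members were 15.4%, 38.5% and 35.9%, where all tested models gave 12.6%, 23.9% and 19.8% higher and 10.7%, 21.1% and 20.7% lower. Without Foxn4 CRISPR replicate 1 or 2 the 6 became 2 and 3, without control replicate 3 it became 3, without morpholino replicate 1 the 15 became 8, and without Foxj1 CRISPR replicate 1 the 14 became 5. Without control replicate 2 the lower ones numbered 7, 10 and 7. CDC25A, a phosphatase that starts cell cycle steps, had the highest of the named peaks of this list (199.5 normalised tags) and fell: it was at 105 and 116 CPM in Foxn4 CRISPR caps, 11.7 and 24.8 CPM in Foxn4 morpholino caps, 24.8 and 48.6 CPM in Foxj1 CRISPR caps, and 583, 286 and 673 CPM in control caps. The groups did not overlap the control. Its log2 fold changes were -4.81 ± 0.54 in Foxn4 morpholino caps (adjusted p = 0.000216) and -3.81 ± 0.51 in Foxj1 CRISPR caps (0.000502), and -2.21 ± 0.47 in Foxn4 CRISPR caps (0.00891), a call lost without either Foxn4 CRISPR library (-2.13 and -2.29). TOP2A, the topoisomerase of dividing cells, had a low peak (14.3 normalised tags). It was at 194 and 213 CPM in Foxn4 CRISPR caps, 435 and 292 CPM in Foxn4 morpholino caps, 336 and 327 CPM in Foxj1 CRISPR caps, and 96.6, 115 and 83.2 CPM in control caps. It rose by 1.89 on the log2 scale in Foxn4 morpholino caps (SE 0.24, 0.000379) and by 1.76 in Foxj1 CRISPR caps (SE 0.24, 0.000569).

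Of 27 tested Notch pathway members, 2 were lower and 6 higher in Foxn4 CRISPR caps, 3 and 12 in Foxn4 morpholino caps, and 2 and 16 in Foxj1 CRISPR caps. The higher shares were 22.2%, 44.4% and 59.3%, where all tested models gave 12.6%, 23.9% and 19.8%. The 36 tested Notch models without a kept promoter peak gave 2 lower and 2 higher, 3 and 10, and 3 and 7. Without Foxn4 CRISPR replicate 1 or 2 the 6 became 3 and 2, without control replicate 3 it became 10, without morpholino replicate 1 the 12 became 7, and without Foxj1 CRISPR replicate 1 or 2 the 16 became 8 and 10 (11 without control replicate 1). HES5, a repressor that Notch signalling switches on, had 7 tested members, of which 2 were called higher in Foxn4 CRISPR caps, 4 in Foxn4 morpholino caps and 6 in Foxj1 CRISPR caps. One, on scaffold 87017, was called in no comparison (1.5, 0.25 and 1.71). Another on this scaffold, with a peak of 28.5 normalised tags centred 7 bp upstream of its start, was at 33.3 and 74.3 CPM in Foxn4 CRISPR caps, 97.5 and 115 CPM in Foxn4 morpholino caps, 53.8 and 68.6 CPM in Foxj1 CRISPR caps, and 12.1, 23.9 and 16.2 CPM in control caps. All perturbed libraries were above the highest control. It rose by 2.61 on the log2 scale in Foxn4 morpholino caps (SE 0.37, adjusted p = 0.000626) and by 1.81 in Foxj1 CRISPR caps (SE 0.37, 0.0038), and its 1.63 ± 0.37 in Foxn4 CRISPR caps (0.0119) was lost without Foxn4 CRISPR replicate 2 (0.93). Of the 13 members for planar polarity and apical actin, 1 was lower and 1 higher in Foxn4 CRISPR caps, 7 and 1 in Foxn4 morpholino caps, and 4 and 0 in Foxj1 CRISPR caps. The lower shares were 7.69%, 53.8% and 30.8%, where all tested models gave 10.7%, 21.1% and 20.7%. Without morpholino replicate 1 the 7 became 3, and the 4 became 0, 2 and 2 without Foxj1 CRISPR replicate 1, Foxj1 CRISPR replicate 2 and control replicate 1.

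**Figure D5:**
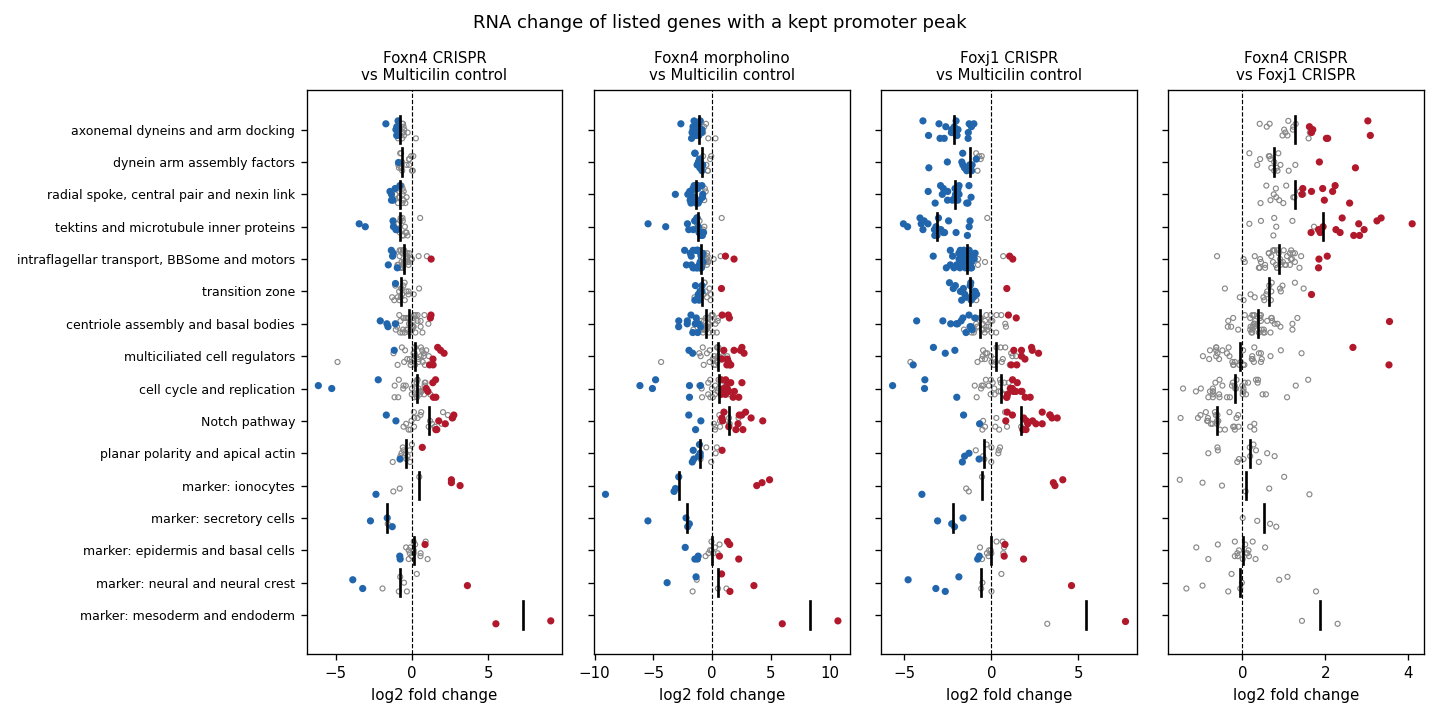
Log2 fold change of each tested member of the 16 gene lists (one point per model; blue, called lower, red, called higher, open, not called at adjusted p under 0.05) in the 4 RNA comparisons, with the list median as a bar. The medians of the axoneme, transport and centriole lists lie left of 0 against the control, furthest in Foxj1 CRISPR, with some members right of 0. The rightmost point of the mesoderm and endoderm markers is GSC, at 0 in all control libraries, so its fitted value is no bound.

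Markers of other cell types changed too, in both directions. Of 39 tested members in these lists, 8 were lower and 7 higher in Foxn4 CRISPR caps, 14 and 12 in Foxn4 morpholino caps, and 11 and 8 in Foxj1 CRISPR caps. The lower shares were 20.5%, 35.9% and 28.2% beside 10.7%, 21.1% and 20.7% over all tested models, and the higher shares 17.9%, 30.8% and 20.5% beside 12.6%, 23.9% and 19.8%. Without either Foxn4 CRISPR library the 8 became 2, without control replicate 1 it became 5, and without Foxj1 CRISPR replicate 1 or 2 the 11 became 5 and 6. ITLN1, an intelectin of secretory skin cells, was at 185 and 262 CPM in Foxn4 CRISPR caps, 29.3 and 37.4 CPM in Foxn4 morpholino caps, 169 and 180 CPM in Foxj1 CRISPR caps, and 815, 2360 and 1250 CPM in control caps. No perturbed library reached the control range. The log2 fold changes were -2.72 ± 0.43, -5.46 ± 0.50 and -3.08 ± 0.44 (adjusted p = 0.00244, 9.97e-05 and 0.000689). FOXI1, the forkhead factor that specifies ionocytes, rose at all 3 members in each of these comparisons: the one with the higher peak (scaffold 1168, 79.4 normalised tags) was at 72.9 and 57.1 CPM in Foxn4 CRISPR caps, 226 and 180 CPM in Foxn4 morpholino caps, 141 and 112 CPM in Foxj1 CRISPR caps, and 13.8, 4.91 and 13.5 CPM in control caps. The log2 fold changes were 2.59 ± 0.39, 4.24 ± 0.41 and 3.56 ± 0.40 (adjusted p = 0.00179, 0.000115 and 0.000252). The other 4 ionocyte members were lower in Foxn4 morpholino caps: CA4, a carbonic anhydrase, which was lower in all 3 comparisons, both DMRT2 models (-3.24 and -3.12) and UBP1 (-2.84). Of all 31 tested ionocyte models, kept or not, 3 were lower and 7 higher in Foxn4 CRISPR caps, 22 and 8 in Foxn4 morpholino caps, and 12 and 7 in Foxj1 CRISPR caps.

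Over all models of the marker lists, with or without a kept peak, secretory markers summed to 3240 to 3370 CPM in Foxn4 CRISPR caps, 1680 to 2370 CPM in Foxn4 morpholino caps, 2970 to 3320 CPM in Foxj1 CRISPR caps and 6020 to 16000 CPM in control caps. Ionocyte markers summed to 726 to 912, 556 to 640, 598 to 632 and 786 to 1450 CPM in the same order, epidermal and basal markers to 33300 to 35900, 23500 to 33600, 30500 to 34000 and 31700 to 36700 CPM, neural markers to 5390 to 6830, 3160 to 5660, 2540 to 3980 and 5630 to 12000 CPM, and mesoderm and endoderm markers to 29.3 to 29.5, 17.7 to 23.9, 34.7 to 41.5 and 14.8 to 42.9 CPM. The neural sum is mostly TUBB2B, a beta-tubulin that is also a member with one of the highest peaks. By number, more neural models were higher than lower: of 33 tested, 3 were lower and 15 higher in Foxn4 CRISPR caps, 4 and 21 in Foxn4 morpholino caps, and 6 and 17 in Foxj1 CRISPR caps. Most of the higher ones had no kept promoter peak: 14, 18 and 16 of the 24 such models tested. The 9 tested neural members gave 2 lower and 1 higher, 2 and 3, and 4 and 1, in the same order. TPH1, KRT14, KRT15, NEUROG1, NEUROG2, SOX10, CHRD and HBA1 stayed under 1 CPM in every library. The part of these markers in the changes of the members was not tested.

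The called members with the largest log2 fold changes against the control included genes outside the cilium lists. ASTL, a secreted protease related to hatching enzymes, was at 15.2 and 27.5 CPM in Foxn4 CRISPR caps, 1.57 and 3.70 CPM in Foxn4 morpholino caps, 3.83 and 10.6 CPM in Foxj1 CRISPR caps, and 1260, 1780 and 1490 CPM in control caps. It was far below the control in every perturbed library. The log2 fold changes were -6.14 ± 0.58, -9.11 ± 0.67 and -7.71 ± 0.63 (adjusted p = 0.00019, 5.26e-05 and 9.33e-05), with its kept peak 76 bp upstream of the start at 28.5 normalised tags. In the other direction, FBXO32, a ubiquitin ligase subunit, was at 19.8 and 13.6 CPM in Foxn4 CRISPR caps, 22.9 and 14.5 CPM in Foxn4 morpholino caps, 13.1 and 14.9 CPM in Foxj1 CRISPR caps, and 0.254, 0.338 and 0.229 CPM in control caps. Its log2 fold changes were 5.87, 6.04 and 5.62 (SE 0.38 each, adjusted p = 4.14e-05, 4.69e-05 and 4.9e-05). POU5F1, a pluripotency factor in mammals, was at 24.9 and 23.6 CPM in Foxn4 CRISPR caps, 166 and 252 CPM in Foxn4 morpholino caps, 58.2 and 37.5 CPM in Foxj1 CRISPR caps, and 1.08, 0.564 and 2.01 CPM in control caps. Its log2 fold changes were 4.31 ± 0.43, 7.41 ± 0.47 and 5.29 ± 0.44 (adjusted p = 0.000289, 4.69e-05 and 9.58e-05). GSC, the organizer gene goosecoid (scaffold 96659), was at 0 in all control libraries and at 2.89 and 6.74, 12.5 and 16.7, and 1.52 and 2.06 CPM in the perturbed groups in the same order, which is at least 81.7-fold, 247-fold and 30.4-fold higher against a floor of 3 counts over the control group. These 4 models kept their calls in every fit that left out a library. A second GSC member (scaffold 39723) was not called in Foxj1 CRISPR caps (log2 fold change 3.21). Its call in Foxn4 CRISPR caps (5.51) was lost without Foxn4 CRISPR replicate 1. All of these changes rest on the control libraries of the earlier study.

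Many X. laevis genes have a second copy from a past genome duplication. Of 6600 symbols with exactly 2 models, 1162 had a kept promoter peak at both, 1875 at 1 and 3563 at neither. The other model of a member was itself a member in 55.3% of cases, where 31.8% of these models were members in all. This gap was not tested, and a kept peak was also more common the more RNA a model had. Where only 1 model had a kept peak, it had more RNA per length in control caps than the other in 1107 of 1875 symbols, with medians of 11.4 and 7.59 TPM. Of the other models, 58.2% had a promoter peak in the Foxn4-alone list only. Reads shared by copies make the split of RNA between them uncertain, and not every pair of models with 1 symbol need be a pair of copies.

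A kept peak served the starts of 2 models in 435 cases, always on opposite strands. Of 416 such pairs with both models tested, both were lower in 6 pairs in Foxn4 CRISPR caps, in 30 in Foxn4 morpholino caps and in 19 in Foxj1 CRISPR caps. Both were higher in 2, 24 and 25, and they went opposite ways in 3, 24 and 27. Only 1 of the pair was called, and lower, in 65, 99 and 118 pairs, or higher in 59, 106 and 85. Neither was called in 281, 133 and 142. Singly, 10.8%, 25.0% and 23.9% of tested members were lower, and 10.7%, 21.1% and 20.7% of all tested models. Whether the models of a pair went together more often than such shares give was not tested. FAM154B and EFTUD1, which share the fourth highest kept peak (scaffold 9266, 4813087 to 4813363), are an example. FAM154B was at 207 and 209 CPM in Foxj1 CRISPR caps and 472, 311 and 791 CPM in control caps, a log2 fold change of -1.34 ± 0.35 (adjusted p = 0.013), lost without Foxj1 CRISPR replicate 1 or 2 (-1.33 and -1.35). EFTUD1 was at 17.9 and 18.6 CPM in Foxj1 CRISPR caps and 15.7, 18.7 and 16.7 CPM in control caps and was called in no comparison. The library kit does not keep strand, so reads where such models overlap cannot be told apart.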

How the data were processed

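RNA was measured in 9 libraries and Foxn4 binding in 2; the 6 input libraries were not analysed here. STAR, eXpress, DESeq, Bowtie2 and HOMER were named in the submitters' processing notes, without versions. The deposited RNA files hold 4 values for each gene model, named in the file headers: an estimated count from eXpress, which shares out reads that match more than 1 model, the unique count, the total count and TPM, all made by the authors. HOMER peaks were called by the authors in each ChIP library alone and, per the file headers, against the same input library of Myb with Multicilin, at a false discovery rate of 0.001, 4-fold over input and 4-fold over the surrounding 10000 bp. The peak files hold tag counts, a signal of tags scaled to 10000000, a score and fold ratios over input and local background, all deposited by the authors. Only the Foxn4-alone tag directory name carries a mapping quality filter. Gene models (Mayball) and the v7.1 assembly are named in the series' design text, and coordinates are 1-based. Of the 24383 models, 455 carry no symbol, 75 of them members.

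Peaks were joined to starts by the scaffold position in each model's name (start for plus, end for minus strand). Tests used edgeR 4.0.16 (R 4.3.3) on rounded estimated counts: TMM scaling, filterByExpr and the quasi-likelihood test, in 1 model of all 9 libraries by group, which leaves 5 residual degrees of freedom (biological coefficient of variation 0.31). The standard error is the log2 fold change divided by the square root of F. CPM use the TMM library sizes. The unique count was 62.7 to 69.1% of the estimated count per library, and no replicates were alike within sampling noise (chi-square per degree of freedom 13.9 to 139.9). The fit was tested on simulated counts. Alternatives were DESeq2 1.42.0, its size factors in edgeR, no low-count filter, unique or all matching reads, only the 2 groups compared, the replicate number as a block, each library left out, other distances, overlaps and peak thresholds. Fold bounds use a floor of 3 counts over a group.

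Members, gene lists and tests were chosen with earlier results of these data known. Named models are those of the 10 highest peaks and of 3 peaks on each side of the distance limit, the 5 lowest and 5 highest fold changes among called members at 5 CPM or more per comparison, the 4 most abundant members of each of the 16 lists, and all regulator members plus MCIDAS, CCNO, MYB, FOXJ1, FOXN4, RFX2, RFX3 and E2F4; EFTUD1 came with the peak it shares, and 1 named model is not reported here. No sequence or motif was analysed here, since no genome of the v7.1 build was used. The authors' tables of fold changes were not used.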

Additional observations from a re-analysis of the deposited data

How the results depend on the processing

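Kept peaks and member models numbered 6211 and 6600 at 500 bp, 7601 and 7744 at 2000 bp, 6416 and 6759 with overlap of at least 0.5 of the shorter peak, 5576 and 5875 at 8-fold over input in both lists, and 3113 and 3318 with peaks above each list's median score.

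Leaving out 1 library gave 97 to 1042 lower and 194 to 751 higher members in Foxn4 CRISPR against control, 991 to 1968 and 834 to 1484 in Foxn4 morpholino, 720 to 1836 and 514 to 1375 in Foxj1 CRISPR, and 0 to 10 lower and 0 to 354 higher in Foxn4 CRISPR over Foxj1 CRISPR. Among the other alternatives, the 749 lower members of Foxn4 CRISPR became 1195 with all matching reads. In Foxn4 CRISPR over Foxj1 CRISPR, the 0 lower members became 13 with DESeq2, 25 with only these groups in the fit and 1 with no low-count filter, with uniquely matching or with all matching reads; the 175 higher became 398 with DESeq2 and 392 with only these groups. With the replicate number as a block they became 0. Same-numbered Foxn4 and Foxj1 CRISPR libraries deviated together (r = 0.601), but with 2 pairs and no label that ties them, the numbers were not taken as pairs; against the control r was -0.18 to -0.04. The other alternatives kept these counts within 1.5 times.

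Of 516 named values, 219 passed the threshold. Values that turned round were E2F4 (scaffold 137809) to -4.15 and FOXN3 (96659) to -0.73 and KRT8 (200825) to -0.98 with all matching reads, FOXD3 (53042) to -2.81 with uniquely matching reads, all in Foxn4 morpholino, and E2F4 (scaffold 15416) without control replicate 2 to 1.29 in Foxn4 morpholino and 1.02 in Foxj1 CRISPR (lowest without 1 library, -4.91 and -5.18). For the first 4 the cause was not tested; the last 2 lose the library at 1540 CPM. Depth limits low members most: 217 were not tested.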
